A study of Homo sapiens with 18 samples.

Results

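The integrin and laminin genes examined here were 30 genes picked by their symbol in the array annotation, 20 integrin subunits and 10 laminin chains. Of these, 29 had a probe, 25 had a probe bright enough to be tested, and 20046 genes had a probe in the whole data set, 15364 of them tested. Each gene was represented by the probe with the highest mean over the 18 arrays. LAMA3 had no probe in the array annotation used, so its level was not analysed here. ITGA1, ITGA8, LAMA1 and LAMA4 fell below the filter on dim probes.

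The arrays measured biotin-labelled cRNA from Hec-1A and RL95-2, established human endometrial carcinoma cell lines, in 6 groups of 3 arrays. In each line the groups were PDGF-AA + 3G3, PDGF-AA (PDGFAA in the labels) and control IgG. PDGF-AA is a growth factor that signals through PDGF receptor alpha, and 3G3 is an antibody against that receptor. Each line stands for the tumour of 1 patient, the labels do not say whether the PDGF-AA arrays also received an IgG, and they state neither dose nor time of treatment. Nothing in the labels says that the 3 arrays of a group came from separate cultures, so p-values measure only the spread between these arrays.

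Integrins are cell surface receptors made of an alpha and a beta subunit that bind laminin, collagen or ligands with an RGD motif such as fibronectin and vitronectin, and that connect them to the actin or keratin cytoskeleton. Laminins are trimers of an alpha, a beta and a gamma chain and form the sheet of the basement membrane on which epithelial cells, those of the endometrium included, rest. Which subunits a cell makes sets which receptors and which laminins it can assemble.

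Levels are given as log2 of the quantile-normalized signal, a scale on which every array had a median of 6.62, and are compared only within a gene, since probes differ in brightness for the same amount of RNA. Precision is limited by having 3 arrays a group. A gene was called where limma's moderated test gave a Benjamini-Hochberg adjusted p below 0.05 over all 32216 tested probes. No detection p-values were available, so a group mean at or below the array median stands for a dim probe and the fold against it is given as a lower bound. All 6 epithelial marker genes were above the array median on every array of 5 groups, and 5 of the 6 were in the RL95-2 PDGF-AA group.

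4 arrays stood apart from the rest of their line on its first principal component, Hec-1A control IgG replicate 1, RL95-2 PDGF-AA replicate 1, and RL95-2 PDGF-AA + 3G3 replicates 2 and 3. The Hec-1A array scored 62.8, against -23.7 to 9.23 for the other 8 Hec-1A arrays. The 3 RL95-2 arrays scored 18.3 to 24.6, against -22.8 to -4.59 for the other arrays of that line. Where leaving them out started or ended a call between the lines, that value is given with the gene. Leaving out all 4 left 1 RL95-2 PDGF-AA + 3G3 array, so only the size of the difference is given there.

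For 4 genes that differed between the lines under all treatments and had an entry in the RefSeq promoter table (GRCh38.p14), the 250 bases before the annotated start are shown 5′ to 3′ on the gene's own strand, to set the regulatory sequence beside the levels. Capitals mark matches on either strand to TGANTCA (the AP-1 motif) and to GGGCGG (the GC box); TATAAA was searched too and is absent from these windows. LAMB3 has 3 annotated starts, of which starts 1 and 3 are shown, since the window of start 2 overlaps that of start 1. LAMB3 start 1 is chr1:209652426-209652675, minus strand, LAMB3 start 3 is chr1:209651375-209651624, minus strand, ITGA5 is chr12:54419267-54419516, minus strand, ITGB6 is chr2:160200273-160200522, minus strand and LAMB1 is chr7:108003162-108003411, minus strand.
LAMB3 start 1: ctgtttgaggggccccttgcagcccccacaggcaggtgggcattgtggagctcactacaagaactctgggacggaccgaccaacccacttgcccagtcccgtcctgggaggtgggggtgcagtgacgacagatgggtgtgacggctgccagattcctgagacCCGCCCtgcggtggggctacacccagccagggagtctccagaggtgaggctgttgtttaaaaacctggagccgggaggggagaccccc
LAMB3 start 3: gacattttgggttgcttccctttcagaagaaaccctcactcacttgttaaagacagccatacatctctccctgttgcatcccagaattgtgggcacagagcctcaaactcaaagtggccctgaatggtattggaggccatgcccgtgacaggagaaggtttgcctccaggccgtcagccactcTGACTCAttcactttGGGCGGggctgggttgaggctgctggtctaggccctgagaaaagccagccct
ITGA5: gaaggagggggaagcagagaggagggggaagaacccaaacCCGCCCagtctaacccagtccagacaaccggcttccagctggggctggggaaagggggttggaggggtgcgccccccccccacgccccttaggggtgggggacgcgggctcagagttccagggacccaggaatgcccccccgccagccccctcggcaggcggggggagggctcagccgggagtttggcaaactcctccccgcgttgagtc
ITGB6: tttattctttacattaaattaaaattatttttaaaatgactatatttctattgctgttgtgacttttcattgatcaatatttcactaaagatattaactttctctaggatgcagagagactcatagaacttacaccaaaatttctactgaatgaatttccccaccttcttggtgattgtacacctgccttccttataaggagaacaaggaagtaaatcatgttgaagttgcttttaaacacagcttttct
LAMB1: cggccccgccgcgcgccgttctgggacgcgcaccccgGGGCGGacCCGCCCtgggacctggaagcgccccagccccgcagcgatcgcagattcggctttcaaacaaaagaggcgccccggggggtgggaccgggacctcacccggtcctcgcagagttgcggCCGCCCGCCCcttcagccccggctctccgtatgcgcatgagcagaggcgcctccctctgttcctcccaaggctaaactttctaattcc
Across the table the AP-1 letters occurred in 2308 of 35116 windows (6.6%) and among the integrin and laminin genes in 2 of 29 windows, at position -67 from LAMB3 start 3 and in the LAMA3 window. The GC box occurred in 14973 windows (42.6%) and in 16 of the 29 windows, from 13 of the 22 genes that have a window. The overlapping windows of LAMB3 starts 1 and 2 hold the same match. TATAAA occurred in 3763 windows (10.7%) and in 2 of the 29. The median GC content was 62.0% over the 29 windows and 58.0% over all windows. LAMB1 carried 4 GC box matches, 2 of which overlap, while ITGB6 carried no match to any of the 3 motifs. These are matches of letters in a fixed window and not measured binding sites.

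The first comparison was between the lines, as the series' design text states. Under control IgG 17 of the 25 tested genes (68%) were called, against 46.0% of all tested genes. Of these, 10 were higher in Hec-1A (22.8% of all tested genes were) and 7 were lower (23.1%). Under PDGF-AA 9 were called, against 36.8% of all genes, 5 higher (18.8%) and 4 lower (18%). Under PDGF-AA + 3G3 12 were called, against 37.3% of all genes, 7 higher (18.8%) and 5 lower (18.5%). The share called under PDGF-AA was thus 36%, at the background, and under PDGF-AA + 3G3 48%. The median size of the log2 difference, without its sign, was 0.29, 0.26 and 0.56 for the integrin and laminin genes under PDGF-AA + 3G3, PDGF-AA and control IgG, against 0.17, 0.16 and 0.21 for all tested genes. Their median signed difference was 0.03, 0.05 and 0.04.

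5 genes were higher in Hec-1A under every treatment (LAMB3, ITGB3, ITGA3, ITGA5 and ITGB6) and 3 were lower (LAMB1, LAMC3 and ITGB2). Those are 20% and 12% of the tested members, beside 13.0% and 14.1% of all tested genes. ITGB3, ITGA5 and LAMC3 passed the filter on dim probes only through the line where they were higher. LAMA2, called under some treatments, did so too. Whether these genes were tested at all thus depended on that line. No member was called in opposite directions under different treatments, beside 0.16% of all tested genes. ITGA2, ITGAV, ITGB1, ITGB4, LAMA5 and LAMB2 were called under control IgG and under neither other treatment. Those are 24% of the tested members, beside 14.7% of all tested genes. ITGA4, ITGA6, ITGA7, ITGA9, ITGA10, ITGA11 and ITGB7, 7 of the 25 (28%), were called under no treatment, beside 43.6% of all tested genes.

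**Figure D1:**
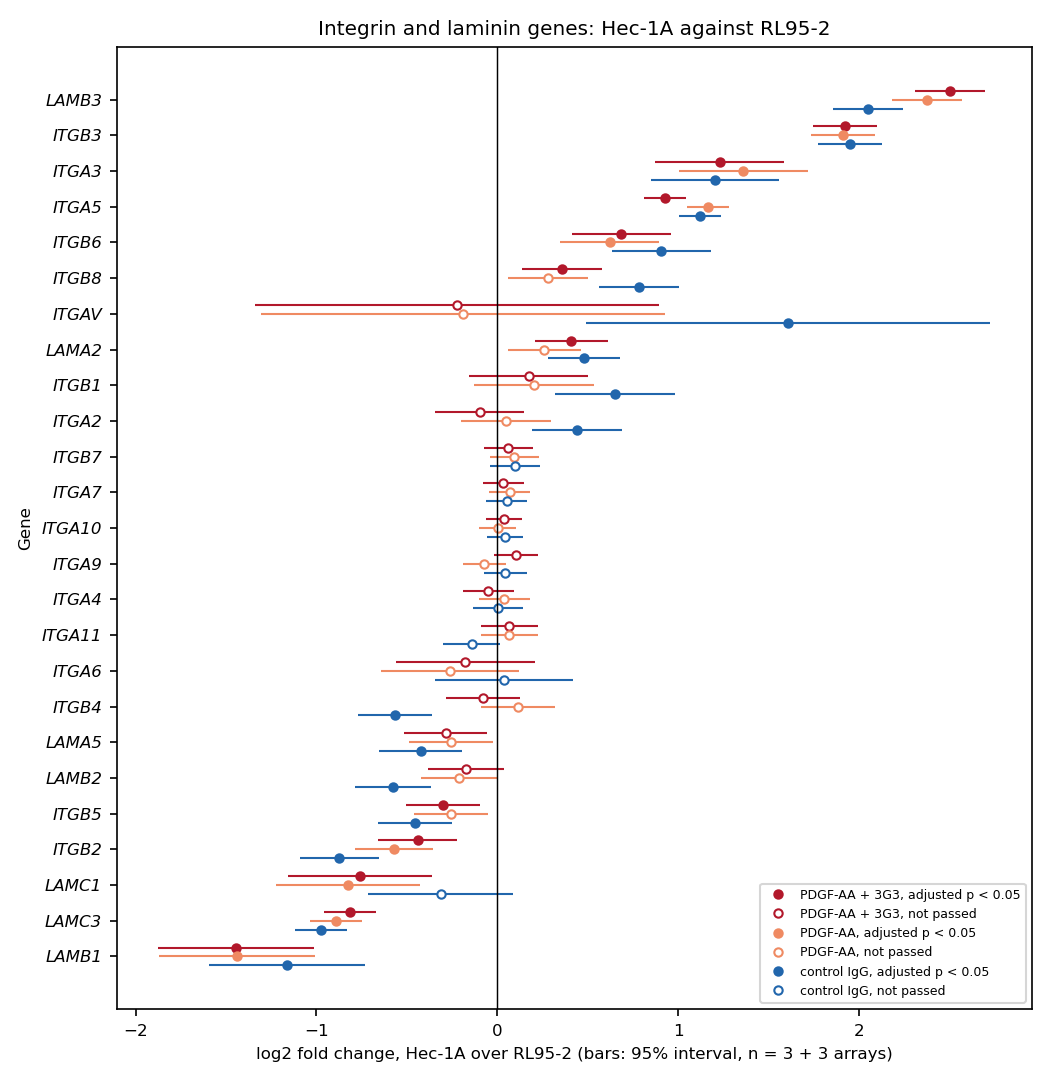
Log2 fold change of each tested integrin and laminin gene in Hec-1A over RL95-2 (horizontal axis) under PDGF-AA + 3G3, PDGF-AA and control IgG, with 95% intervals from the limma fit of 3 arrays a group; filled points had an adjusted p below 0.05. LAMB3 and ITGB3 lie farthest to the right under PDGF-AA and PDGF-AA + 3G3, LAMB1 farthest to the left under all treatments, and ITGAV has the widest intervals.

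Among the laminin-binding integrins, ITGA3, the alpha subunit of alpha3beta1, a receptor for epithelial laminins, was higher in Hec-1A. Its level had a lowest, median and highest value of 11.57, 12.00 and 12.55 over the 9 Hec-1A arrays, against 10.46, 10.76 and 11.03 over the 9 RL95-2 arrays. No Hec-1A array overlapped any RL95-2 array. In bulk RNA such as this, fewer cells with the transcript and less transcript per cell cannot be told apart. The log2 fold change was 1.23, 1.36 and 1.20 under PDGF-AA + 3G3, PDGF-AA and control IgG (SE 0.17 each), with adjusted p values of 2.38e-05, 7.78e-06 and 2.51e-05. A dimmer second ITGA3 probe gave 0.41, 0.24 and 0.23, all called, so the size differed between probes while the direction did not.

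ITGB4, which pairs with ITGA6 in the hemidesmosome, read 8.14, 8.26 and 8.25 on the Hec-1A control IgG arrays, against 8.70, 8.70 and 8.95 on the RL95-2 control IgG arrays. These groups did not overlap, and the log2 fold change was -0.56 (SE 0.10, adjusted p = 0.000182). Under PDGF-AA ITGB4 read 8.80, 8.44 and 8.70 in Hec-1A, against 8.44, 8.64 and 8.51 in RL95-2, and the groups overlapped (0.11, adjusted p = 0.463). A second probe gave -0.40 under control IgG (adjusted p = 0.00614), and another one, whose group means all lay between 6.53 and 6.63, gave 0.08 (adjusted p = 0.342). ITGA6 itself had a lowest, median and highest level of 9.11, 9.32 and 10.23 in Hec-1A, against 9.37, 9.49 and 9.75 in RL95-2, and was not called under any treatment. Its log2 fold change under control IgG was 0.04 with all arrays and -0.27 without Hec-1A control IgG replicate 1 (adjusted p = 0.0525). Without that array ITGA6 was called under PDGF-AA (-0.26, adjusted p = 0.034), and without all 4 arrays that stood apart it was not (-0.25, adjusted p = 0.108). ITGA7, a laminin receptor of muscle, stayed between 6.54 and 6.74 over all 18 arrays.

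Of the 6 tested members of the RGD-binding group, 5 were higher and 1 lower in Hec-1A under control IgG, 3 were higher under PDGF-AA, and 4 were higher and 1 lower under PDGF-AA + 3G3. Among all tested genes, 46.0%, 36.8% and 37.3% were called in either direction under these treatments, in the same order. ITGB3, which pairs with ITGAV in a vitronectin receptor, read 8.56, 8.47 and 8.30 under PDGF-AA + 3G3, 8.46, 8.55 and 8.30 under PDGF-AA and 8.52, 8.48 and 8.66 under control IgG in Hec-1A. In RL95-2 it read 6.51, 6.56 and 6.49 under PDGF-AA + 3G3, 6.49, 6.54 and 6.55 under PDGF-AA and 6.74, 6.61 and 6.46 under control IgG. The lines were well separated, and the RL95-2 group means lay at or below the array median. As a lower bound, ITGB3 was at least 3.52-fold higher under PDGF-AA + 3G3, at least 3.52-fold under PDGF-AA and at least 3.70-fold under control IgG (adjusted p = 2.12e-11, 2.16e-11 and 1.57e-11).

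ITGA5, the alpha subunit of the fibronectin receptor, had a lowest, median and highest level of 7.36, 7.60 and 7.71 in Hec-1A, against 6.43, 6.52 and 6.55 in RL95-2. All RL95-2 arrays were below the array median and all Hec-1A arrays above it, so ITGA5 passed the filter through Hec-1A alone. Its level exceeded that of RL95-2 at least 1.76-fold under PDGF-AA + 3G3, 2.04-fold under PDGF-AA and 2.00-fold under control IgG (adjusted p = 1.16e-09, 6.22e-11 and 9.77e-11). ITGB6, an epithelial partner of ITGAV that binds latent TGF-beta, had 7.28, 7.40 and 8.004 in Hec-1A, against 6.61, 6.72 and 6.80 in RL95-2. The lines did not overlap, and the highest Hec-1A value came from control IgG replicate 1. The log2 fold change of ITGB6 was 0.68, 0.62 and 0.91 under PDGF-AA + 3G3, PDGF-AA and control IgG (SE 0.13 each; adjusted p = 0.000575, 0.00133 and 3.1e-05), and 0.67 under control IgG without that array.

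ITGB8, another ITGAV partner that binds latent TGF-beta, had a lowest, median and highest level of 6.95, 7.19 and 7.83 in Hec-1A, against 6.63, 6.83 and 6.86 in RL95-2. No array of one line reached the range of the other. It was called under PDGF-AA + 3G3 (log2 fold change 0.36, SE 0.10, adjusted p = 0.016) and control IgG (0.78, SE 0.10, adjusted p = 1.62e-05), and not under PDGF-AA (0.28, adjusted p = 0.0596). Under PDGF-AA ITGB8 was called when Hec-1A control IgG replicate 1 was left out (0.27, adjusted p = 0.0052) and when all 4 arrays that stood apart were (0.27, adjusted p = 0.0205). The call under PDGF-AA + 3G3 ended without Hec-1A PDGF-AA + 3G3 replicate 1 (adjusted p = 0.0529) and with arrays scaled to a common median (0.29, adjusted p = 0.226). ITGB5, the beta subunit of a further vitronectin receptor, was the member of this group that was lower in Hec-1A, with 10.35, 10.62 and 10.77, against 10.73, 10.94 and 11.12 in RL95-2. The ranges met only at their edges. Its log2 fold change was -0.30, -0.26 and -0.45 under PDGF-AA + 3G3, PDGF-AA and control IgG (SE 0.10 each), called under the first (adjusted p = 0.0275) and the last (adjusted p = 0.00129). The call under PDGF-AA + 3G3 ended without Hec-1A PDGF-AA + 3G3 replicate 1 or 3 or RL95-2 PDGF-AA + 3G3 replicate 1 (adjusted p = 0.0871, 0.115 and 0.132). Under PDGF-AA ITGB5 was called without Hec-1A control IgG replicate 1 (-0.26, adjusted p = 0.0281) and without the 4 arrays (-0.29, adjusted p = 0.021). A second ITGB5 probe gave -0.35, -0.45 and -0.48 under PDGF-AA + 3G3, PDGF-AA and control IgG. It was called under all treatments (adjusted p = 0.00628, 0.000743 and 0.000387). A dimmer one gave -0.24, -0.20 and -0.43 and was called under control IgG alone (adjusted p = 0.0919, 0.165 and 0.00265).

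ITGAV, the alpha subunit shared by the beta3, beta5, beta6 and beta8 receptors, varied most from array to array. In Hec-1A it read 7.87, 7.39 and 8.47 under PDGF-AA + 3G3, 7.23, 8.13 and 7.53 under PDGF-AA, and 10.44, 8.14 and 8.06 under control IgG. In RL95-2 it read 7.31, 8.52 and 8.56 under PDGF-AA + 3G3, 8.46, 7.53 and 7.46 under PDGF-AA, and 7.17, 7.37 and 7.28 under control IgG. The array at 10.44 and the 3 RL95-2 arrays above 8 were the same 4 arrays that stood apart from their lines. The log2 fold change of ITGAV was -0.22, -0.19 and 1.61 under PDGF-AA + 3G3, PDGF-AA and control IgG (SE 0.53 each), with the last alone called (adjusted p = 0.0248). Without Hec-1A control IgG replicate 1 it was 0.82 and the call ended (adjusted p = 0.116). The call also ended without RL95-2 control IgG replicate 1, 2 or 3 (adjusted p = 0.0668, 0.0505 and 0.0598). Without all 4 arrays the values were 0.59, 0.13 and 0.82, the first with 1 RL95-2 array left. The last was called (adjusted p = 0.0207).

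**Figure D2:**
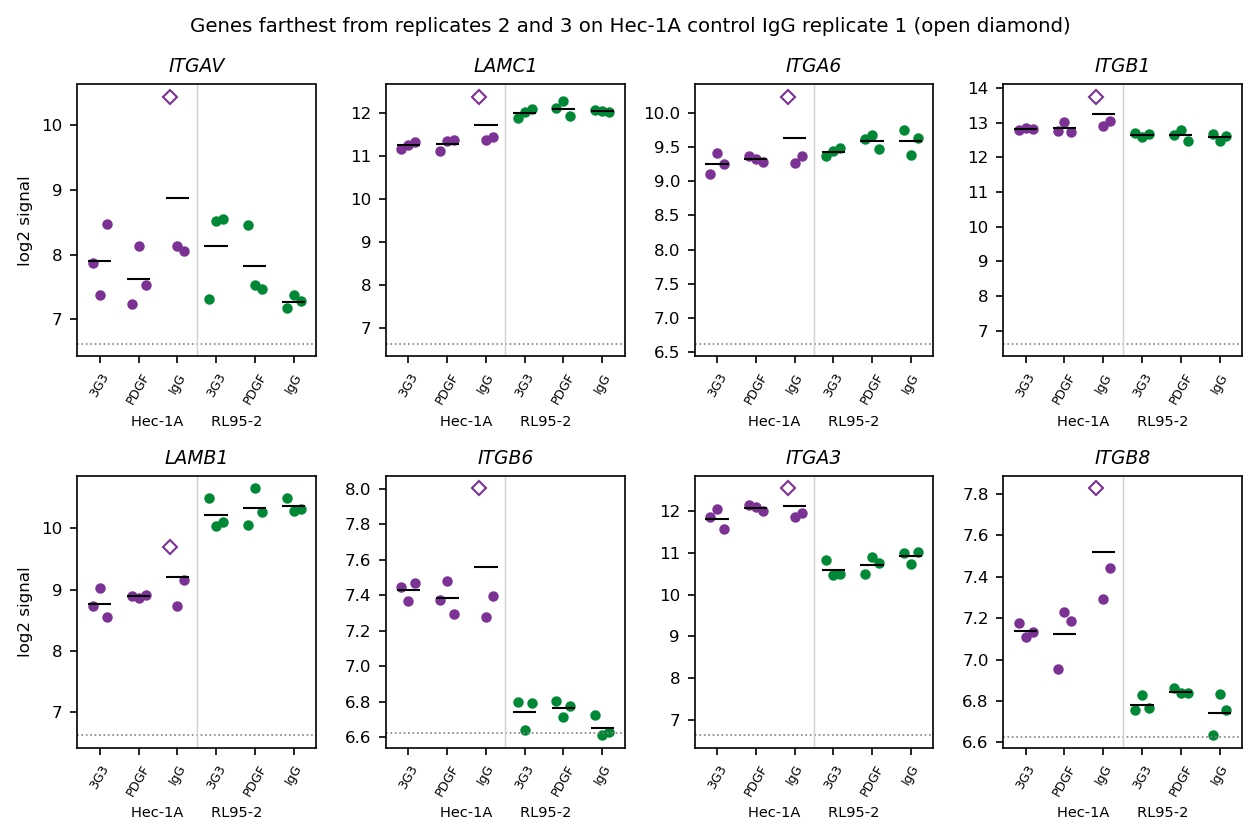
Log2 signal on each array (vertical axis) of the 8 genes that lay farthest from replicates 2 and 3 on Hec-1A control IgG replicate 1, which is the open diamond; horizontal bars are group means, the dotted line is the array median of 6.62, and 3G3, PDGF and IgG stand for PDGF-AA + 3G3, PDGF-AA and control IgG. ITGAV reads 10.44 on that array, against 8.14 and 8.06 on the other control IgG arrays of Hec-1A, and the RL95-2 arrays of ITGAV split into 3 near 8.5 and 6 between 7.17 and 7.53.

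ITGB1, the beta subunit shared by most collagen, laminin and fibronectin receptors, had a lowest, median and highest level of 12.75, 12.86 and 13.75 in Hec-1A, against 12.48, 12.65 and 12.79 in RL95-2. The highest value was again on Hec-1A control IgG replicate 1. It was called under control IgG (log2 fold change 0.65, SE 0.16, adjusted p = 0.00336) and remained called without that array at 0.40. It was not called under PDGF-AA + 3G3 (0.17) or PDGF-AA (0.20). A second ITGB1 probe gave 1.55 under control IgG (adjusted p = 0.000221), where it averaged 11.26 in Hec-1A and 9.71 in RL95-2, and 0.22 and 0.24 under PDGF-AA + 3G3 and PDGF-AA.

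Of the collagen-binding group, ITGA2, the alpha subunit of the epithelial collagen receptor, read 8.06, 7.68 and 7.99 in Hec-1A under control IgG, against 7.54, 7.60 and 7.27 in RL95-2. These 3 against 3 arrays did not overlap (log2 fold change 0.44, SE 0.12, adjusted p = 0.00665). Under PDGF-AA + 3G3 and PDGF-AA the differences were -0.10 and 0.05 and were not called. ITGA10, another collagen receptor subunit, stayed between 6.50 and 6.69 over all arrays, and ITGA11, likewise a collagen receptor subunit, between 6.54 and 6.85. ITGA1, the fourth collagen-binding subunit, stayed between 6.31 and 6.54 and was below the filter, as was ITGA8, an RGD-binding subunit, which passed the array median on 1 of 18 arrays.

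Among the alpha4, alpha9 and leukocyte integrins, ITGB2, the beta subunit of the leukocyte integrins, was lower in Hec-1A. It had a lowest, median and highest level of 7.26, 7.60 and 7.69 in Hec-1A, against 7.96, 8.15 and 8.49 in RL95-2. The lines did not overlap. The log2 fold change was -0.44, -0.57 and -0.87 under PDGF-AA + 3G3, PDGF-AA and control IgG (SE 0.10 each; adjusted p = 0.00333, 0.000372 and 4.03e-06), and a second probe gave -0.46, -0.36 and -0.91. Of the 6 leukocyte markers measured, PTPRC lay between 6.52 and 6.68 in Hec-1A and between 6.46 and 6.67 in RL95-2, near the array median. CD3D lay between 6.42 and 6.62 in Hec-1A and 6.48 and 6.63 in RL95-2, and CD14 between 6.55 and 6.69 in Hec-1A and 6.52 and 6.67 in RL95-2. LYZ lay above the array median on every array, between 6.70 and 6.94 in Hec-1A and 6.72 and 6.90 in RL95-2. CD79A lay between 6.53 and 6.86 in Hec-1A and 6.51 and 6.68 in RL95-2. The summed signal of the 6 markers per array was 754 to 980 in Hec-1A and 905 to 1059 in RL95-2, and CD68, a lysosomal protein that is not limited to leukocytes, was the brightest of them in both lines. CD68 lay between 8.03 and 8.88 in Hec-1A and between 8.68 and 9.10 in RL95-2, and its part in the ITGB2 difference was not tested. ITGAM, a leukocyte partner of ITGB2, averaged between 6.53 and 6.71 in every group. ITGA4, of a VCAM1 receptor, and ITGA9, of a tenascin receptor, stayed between 6.61 and 6.97 and between 6.50 and 6.78. ITGB7, the partner of ITGA4 in gut homing of lymphocytes, stayed between 6.59 and 6.92.

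Of the laminin chains, 2 of 7 tested were higher and 4 lower in Hec-1A under control IgG, 1 higher and 3 lower under PDGF-AA, and 2 higher and 3 lower under PDGF-AA + 3G3. The shares of all tested genes called in either direction were 46.0%, 36.8% and 37.3% in the same order. LAMB3, the beta chain of the laminin of epithelial anchoring sites, showed the largest difference of all tested integrin and laminin genes. In Hec-1A it read 10.66, 10.87 and 10.70 under PDGF-AA + 3G3, 10.68, 10.84 and 10.64 under PDGF-AA and 10.20, 10.57 and 10.54 under control IgG. In RL95-2 it read 8.33, 8.19 and 8.21 under PDGF-AA + 3G3, 8.31, 8.34 and 8.39 under PDGF-AA and 8.45, 8.44 and 8.28 under control IgG. Every Hec-1A array lay above every RL95-2 array. The fold was 5.66, 5.19 and 4.14 under PDGF-AA + 3G3, PDGF-AA and control IgG (log2 2.50, 2.37 and 2.05, SE 0.09 each; adjusted p = 2.57e-12, 4.72e-12 and 2.99e-11). A second LAMB3 probe was called in the same direction at 0.74, 0.74 and 0.57, and another one, with group means between 6.52 and 6.66, was not called.

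LAMB1, the beta chain of most laminins outside the epithelial anchoring type, went the other way. Its lowest, median and highest level was 8.55, 8.90 and 9.70 in Hec-1A, against 10.03, 10.28 and 10.65 in RL95-2. The lines did not overlap, and 9.70 was the value on Hec-1A control IgG replicate 1. The log2 fold change was -1.44, -1.44 and -1.16 under PDGF-AA + 3G3, PDGF-AA and control IgG (SE 0.20 each; adjusted p = 3.31e-05, 3.45e-05 and 0.000234), and -1.42 under control IgG without that array. A second LAMB1 probe gave -1.72, -1.56 and -1.12. Of the 7 fibroblast and smooth muscle markers COL1A1 lay at 6.58 to 6.81 in Hec-1A and at 7.09 to 7.33 in RL95-2. ACTA2, the brightest, lay at 7.89 to 8.22 in Hec-1A and at 7.78 to 8.27 in RL95-2. The ranges of COL1A2, COL3A1, DCN, LUM and PDGFRB likewise overlapped between the lines. The summed signal of the 7 per array was 812 to 880 in Hec-1A and 837 to 945 in RL95-2, and their part in the LAMB1 difference was not tested. The promoters of LAMB3 and LAMB1 shown above thus belong to beta chain genes that differed in opposite directions.

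LAMC3, the gamma3 chain, had 6.47, 6.57 and 6.64 in Hec-1A as lowest, median and highest level, against 7.31, 7.48 and 7.59 in RL95-2. All Hec-1A group means were below the array median. It was at least 1.69-fold lower in Hec-1A under PDGF-AA + 3G3, at least 1.76-fold lower under PDGF-AA and at least 1.89-fold lower under control IgG (adjusted p = 7.52e-08, 2.52e-08 and 7.49e-09). The endothelial marker CDH5 was also higher in RL95-2, at 7.02 to 7.34, than in Hec-1A, at 6.34 to 6.58, while the other 4 endothelial markers lay between 6.37 and 6.79 in both lines. The summed endothelial signal was 448 to 486 in Hec-1A and 511 to 539 in RL95-2, and its part in the LAMC3 difference was not tested.

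LAMC1, the gamma chain of most laminins, read 11.15, 11.25 and 11.33 under PDGF-AA + 3G3, 11.11, 11.34 and 11.38 under PDGF-AA, and 12.38, 11.37 and 11.45 under control IgG in Hec-1A. In RL95-2 it read 11.88, 12.03 and 12.10, then 12.10, 12.28 and 11.92, then 12.07, 12.05 and 12.02 under the same treatments. Apart from Hec-1A control IgG replicate 1, at 12.38, every Hec-1A array lay below every RL95-2 array. LAMC1 was lower in Hec-1A under PDGF-AA + 3G3 (log2 fold change -0.76, SE 0.19, adjusted p = 0.00506) and PDGF-AA (-0.83, SE 0.19, adjusted p = 0.00278), and was not called under control IgG (-0.31). Without that array the control IgG value was -0.64 and was called (adjusted p = 6.8e-05).

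LAMA5, the alpha chain of the main epithelial basement membrane laminin, had a lowest, median and highest level of 12.28, 12.56 and 12.65 in Hec-1A, against 12.61, 12.90 and 13.08 in RL95-2. It was called under control IgG (log2 fold change -0.42, SE 0.11, adjusted p = 0.00536) and measured -0.29 and -0.26 under PDGF-AA + 3G3 and PDGF-AA. LAMB2, the beta chain that replaces LAMB1 at synapses and in the glomerulus, had 7.63, 7.96 and 8.17 in Hec-1A, against 8.05, 8.33 and 8.42 in RL95-2, and was called under control IgG (-0.58, SE 0.10, adjusted p = 0.000188). The line ranges of both genes overlapped at their edges. Without the 4 arrays that stood apart, LAMA5 and LAMB2 were called under control IgG and PDGF-AA, at -0.37 and -0.31 under PDGF-AA. Under PDGF-AA + 3G3 they then measured -0.48 and -0.35, with replicate 1 as the only RL95-2 array. Leaving out RL95-2 PDGF-AA replicate 1 alone also gave calls of both under PDGF-AA (adjusted p = 0.0196 and 0.0362) and of LAMA5 under PDGF-AA + 3G3 (adjusted p = 0.0361). LAMA2, the alpha chain of muscle laminin, had 6.57, 6.998 and 7.13 in Hec-1A, against 6.50, 6.55 and 6.62 in RL95-2. The lowest Hec-1A array fell within the RL95-2 range. The RL95-2 group means lay below the array median, and LAMA2 was at least 1.248-fold higher under PDGF-AA + 3G3 (adjusted p = 0.00324) and at least 1.35-fold under control IgG (adjusted p = 0.000712). A second probe was called under all treatments. Under PDGF-AA + 3G3 LAMA2 measured 0.37 without the 4 arrays, again with a single RL95-2 array. LAMA2 was called under PDGF-AA without Hec-1A control IgG replicate 1 (adjusted p = 0.0483). LAMA1 and LAMA4, alpha chains of embryonic and of vascular laminins, stayed between 6.37 and 6.59 on all arrays.

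**Figure D3:**
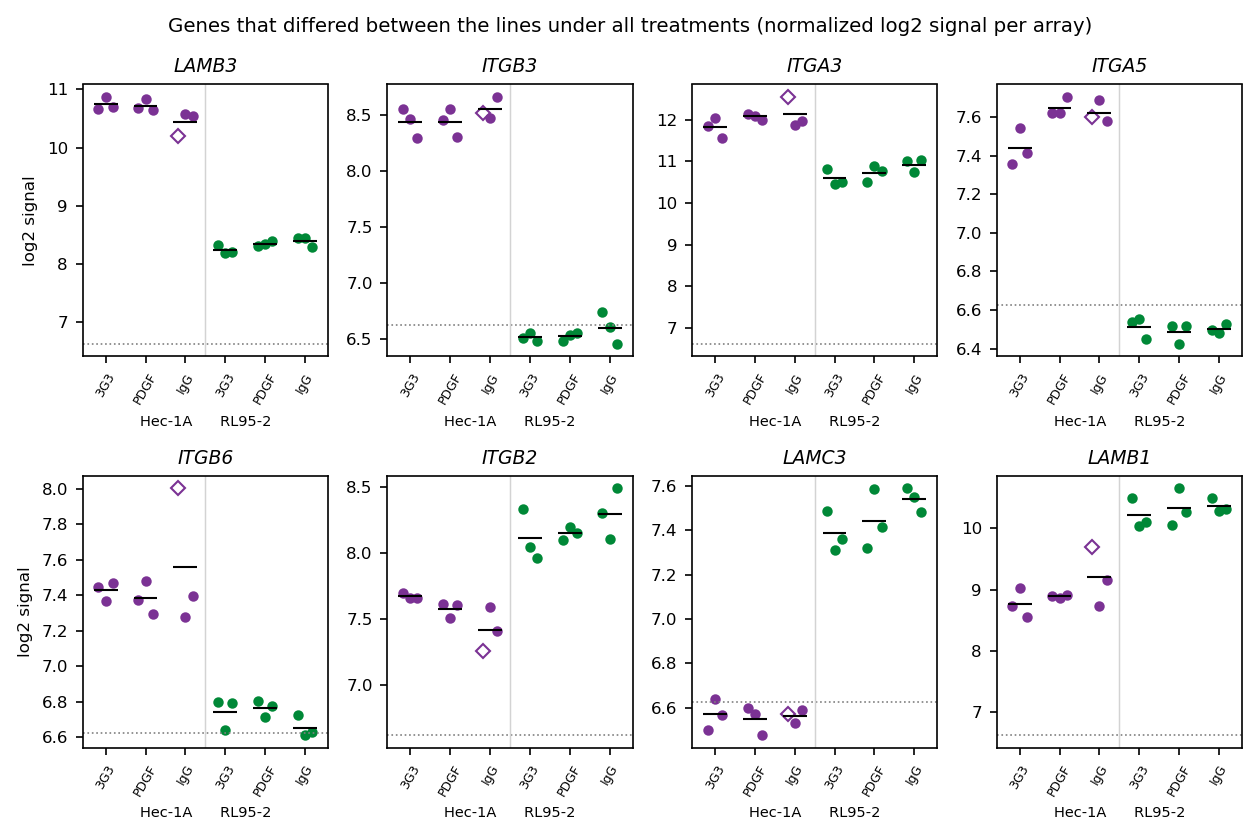
Log2 signal on each array (vertical axis) of the 8 genes that were called between the lines under every treatment, 3 arrays a group; bars are group means, the dotted line is the array median of 6.62, the open diamond is Hec-1A control IgG replicate 1, and 3G3, PDGF and IgG stand for PDGF-AA + 3G3, PDGF-AA and control IgG. LAMB3, ITGB3, ITGA3, ITGA5 and ITGB6 are higher in Hec-1A, ITGB2, LAMC3 and LAMB1 are lower, and the lines do not overlap in any of the panels. The genes were chosen by these calls, so the lack of overlap is not separate support. The share of all genes without overlap is not given here.

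Across the tested members, Hec-1A control IgG replicate 1 differed from the mean of replicates 2 and 3 by more than 0.5 on the log2 scale for 7 of 25 (28%), against 16.1% of all tested genes. The median deviation was 0.23 for the members and 0.13 for all tested genes. Leaving the array out left 17 members called under control IgG, with LAMC1 called and ITGAV not. The share of all genes called without it is not given here.

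The second comparison asked what PDGF-AA, and 3G3 on top of it, did within each line. No integrin or laminin gene was called in any of these comparisons. In Hec-1A PDGF-AA against control IgG called 0 of 25 members and 0% of all tested genes. At an unadjusted p below 0.05 were 10 members, beside 4004 of all 15364 tested genes. PDGF-AA + 3G3 against PDGF-AA called 0 of 25 and 0% of all genes, with 1 member unadjusted, beside 655 genes. PDGF-AA + 3G3 against control IgG called 0 of 25, beside 0.00651% of all genes, with 10 members unadjusted, beside 3903 genes. In RL95-2 PDGF-AA against control IgG called 0 of 25, beside 0.00651% of all genes, with 1 member unadjusted, beside 966 genes. PDGF-AA + 3G3 against PDGF-AA called 0 of 25, beside 0.00651%, with 1 member unadjusted, beside 545 genes. PDGF-AA + 3G3 against control IgG called 0 of 25 and 0% of all genes, with 2 members unadjusted, beside 1744 genes. These comparisons share their arrays in pairs, so their values are not independent of each other.

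In Hec-1A the smallest p values for PDGF-AA belonged to ITGB4, ITGB8 and LAMB3. ITGB4 read 8.80, 8.44 and 8.70 under PDGF-AA, against 8.14, 8.26 and 8.25 under control IgG, without overlap (log2 fold change 0.43, 95% interval 0.22 to 0.63, adjusted p = 0.113). ITGB8 read 6.95, 7.23 and 7.19 under PDGF-AA, against 7.83, 7.29 and 7.44 under control IgG, also without overlap (-0.40, 95% interval -0.62 to -0.18, adjusted p = 0.113). LAMB3 differed by 0.28 (adjusted p = 0.127). Without Hec-1A control IgG replicate 1 the values were 0.39, -0.24 and 0.16 (adjusted p = 0.316, 0.36 and 0.543), and no member was called. Without Hec-1A control IgG replicate 2, by contrast, 6 members were called, ITGB4, ITGB8 and LAMB3 among them (adjusted p = 0.023, 0.0128 and 0.0359). Replicates 1 and 3 were then the control IgG group, and replicate 1 is the array that stood apart. The share of all genes called without replicate 2 is not given here. Without Hec-1A PDGF-AA replicate 2, ITGB4 was called (0.53, adjusted p = 0.0499).

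For PDGF-AA + 3G3 against control IgG in Hec-1A the smallest p values were those of ITGA2 (-0.45, 95% interval -0.70 to -0.20, adjusted p = 0.0695), ITGB8 (-0.38, adjusted p = 0.0771) and ITGA5 (-0.18, adjusted p = 0.091). ITGA2 read 7.41, 7.43 and 7.52 under PDGF-AA + 3G3, against 8.06, 7.68 and 7.99 under control IgG, without overlap. Without Hec-1A control IgG replicate 1 ITGA2 and ITGA5 measured -0.37 and -0.19 (adjusted p = 0.243 and 0.259). Without Hec-1A control IgG replicate 2, 6 members were called, among them ITGA2 (log2 fold change -0.57, adjusted p = 0.00837) and ITGB8 (-0.50, adjusted p = 0.0081). Replicate 1, which stood apart, was again in the control IgG group left, and the share of all genes called is not given here. For PDGF-AA + 3G3 against PDGF-AA the smallest p values were those of ITGA5 (-0.21), ITGB5 (-0.15) and ITGA3 (-0.26), each with an adjusted p of 1.

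In RL95-2 the smallest p values for PDGF-AA were those of ITGB4 (-0.25, 95% interval -0.46 to -0.05, adjusted p = 0.836), ITGA9 (adjusted p = 0.871) and ITGA10 (adjusted p = 0.889). ITGA9 averaged 6.69 under PDGF-AA and 6.58 under control IgG, which makes it at least 1.05-fold higher, and both ITGA10 means lay below the array median. For PDGF-AA + 3G3 against control IgG they were those of LAMC3 (-0.15, adjusted p = 0.51), LAMA5 (-0.25, adjusted p = 0.512) and ITGA4 (0.13, adjusted p = 0.549). For PDGF-AA + 3G3 against PDGF-AA they were those of ITGA9 (at least 1.05-fold lower), ITGA4 (0.09) and LAMB3 (-0.10), each with an adjusted p of 1. ITGAV had the widest interval of all. For PDGF-AA in Hec-1A its log2 fold change was -1.252 (95% interval -2.37 to -0.13, adjusted p = 0.192), and -0.47 without Hec-1A control IgG replicate 1 (95% interval -1.26 to 0.33, adjusted p = 0.728). In RL95-2 it was 0.54 (95% interval -0.57 to 1.66, adjusted p = 0.93), and 0.22 without RL95-2 PDGF-AA replicate 1 (95% interval -1.01 to 1.46, adjusted p = 1). Without all 4 arrays the values were -0.47 in Hec-1A and 0.22 in RL95-2.

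**Figure D4:**
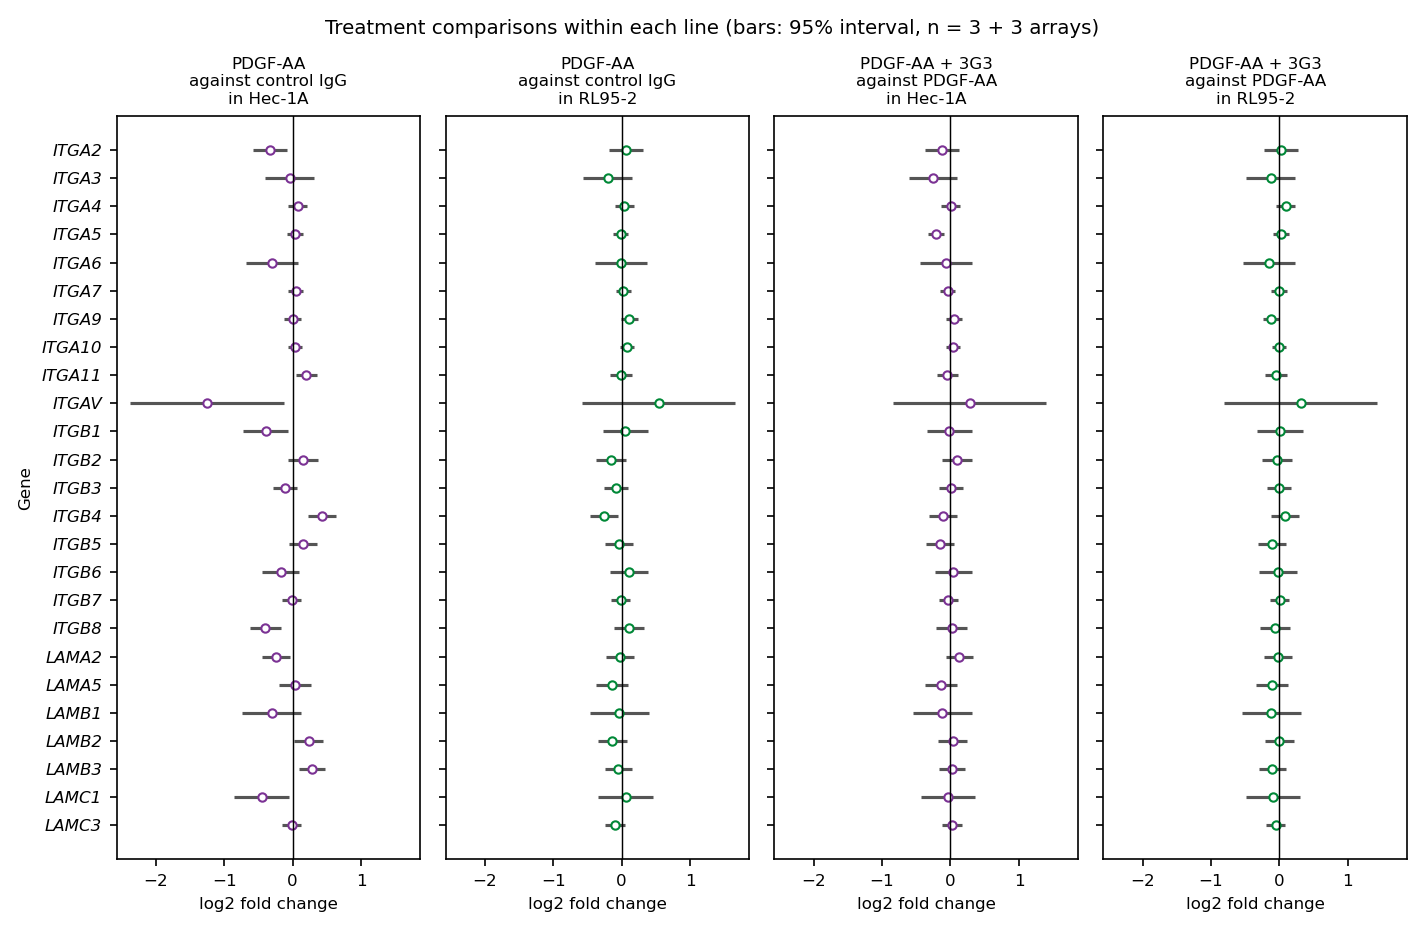
Log2 fold change (horizontal axis) of each tested integrin and laminin gene for PDGF-AA against control IgG and for PDGF-AA + 3G3 against PDGF-AA, per cell line, with 95% intervals from the limma fit of 3 arrays a group. No gene had an adjusted p below 0.05, and ITGAV has the widest interval in every panel.

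The difference between the lines in the PDGF-AA response was tested as an interaction, which also tests whether the line differences changed with PDGF-AA. It called 0 of 25 members, beside 0.00651% of all genes, with 6 members unadjusted, beside 3790 of all 15364 tested genes. The smallest p values were those of ITGB4 (0.68, 95% interval 0.39 to 0.97, adjusted p = 0.136), ITGB8 (-0.50, adjusted p = 0.141) and LAMB2 (0.37, adjusted p = 0.176). Without Hec-1A control IgG replicate 2, ITGB4 and ITGB8 were called (adjusted p = 0.0299 and 0.0306). Without Hec-1A control IgG replicate 1, the array that stood apart, no member was called. The difference in the response to 3G3 on top of PDGF-AA called 0 of 25 members and 0% of all genes, with 2 unadjusted, beside 401 genes. Its smallest p values were those of ITGA5 (-0.24), ITGA9 (near the array median in all groups) and ITGB4 (-0.19), each with an adjusted p of 1. The difference between the lines in PDGF-AA + 3G3 against control IgG was not tested.

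The proteins that link integrins to the cytoskeleton and the other parts of the basement membrane were counted between the lines for comparison. The counts of each list stand beside the share of all tested genes called in either direction. That share was 37.3% under PDGF-AA + 3G3, 36.8% under PDGF-AA and 46.0% under control IgG. Whether a list differed from these shares was not tested. Of 24 tested adaptor and focal adhesion genes, 11 were higher and 6 lower in Hec-1A under PDGF-AA + 3G3, 13 higher and 6 lower under PDGF-AA and 13 higher and 5 lower under control IgG. Their median log2 difference under control IgG was 0.26, against -0.0003 for all tested genes. The smallest p values under control IgG belonged to NEDD9, a scaffold protein of focal adhesions, to FERMT1 and to FERMT2, kindlins that activate integrins. NEDD9 averaged 6.98 in Hec-1A and 10.41 in RL95-2 (-3.43, SE 0.08, adjusted p = 4.26e-15). FERMT1 averaged 6.60 in Hec-1A and 8.54 in RL95-2 and was at least 3.74-fold lower in Hec-1A (adjusted p = 2.27e-13). FERMT2 averaged 10.73 in Hec-1A and 9.08 in RL95-2 (1.65, SE 0.15, adjusted p = 1.57e-07), so the kindlin genes differed in opposite directions.

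Of 12 tested basement membrane partners, 5 were higher and 3 lower in Hec-1A under PDGF-AA + 3G3, 6 higher and 3 lower under PDGF-AA and 6 higher and 4 lower under control IgG (median log2 difference 0.18). COL18A1, the core protein from which endostatin is cut, averaged 10.39 in Hec-1A and 7.46 in RL95-2 under control IgG (2.93, SE 0.10, adjusted p = 9.61e-13). LAMB4, a further laminin beta chain gene, averaged 6.54 in Hec-1A and 8.26 in RL95-2 and was at least 3.10-fold lower in Hec-1A (adjusted p = 1.41e-11). NID2, a nidogen that links laminin to collagen IV, averaged 8.13 in Hec-1A and 6.49 in RL95-2 which makes it at least 2.84-fold higher (adjusted p = 4.34e-10). LAMB4 thus lay on the same side as LAMB1 and opposite to LAMB3.

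Among 7 tested hemidesmosome and laminin receptor partners, 3 were higher and 3 lower in Hec-1A under PDGF-AA + 3G3 and under PDGF-AA, and 2 higher and 3 lower under control IgG (median -0.0047). The plakin gene DST averaged 6.53 in Hec-1A and 7.48 in RL95-2 under control IgG and was at least 1.81-fold lower in Hec-1A (adjusted p = 5.38e-09). LGALS3, a galectin that binds laminin sugars, averaged 8.71 in Hec-1A and 10.54 in RL95-2 (log2 fold change -1.83, adjusted p = 7.46e-07), with an SD of 0.48 over the 3 Hec-1A arrays. Under PDGF-AA + 3G3 and PDGF-AA the value of LGALS3 was -0.91 and -1.07 (adjusted p = 0.00117 and 0.000273). SDC1, a heparan sulphate proteoglycan of epithelia, averaged 10.03 in Hec-1A and 11.39 in RL95-2 (log2 fold change -1.35, adjusted p = 1.08e-06).

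Of 16 tested other ligands of integrins, 5 were higher and 2 lower in Hec-1A under PDGF-AA + 3G3, 4 higher and 2 lower under PDGF-AA and 7 higher and 2 lower under control IgG (median 0.06). SPP1, osteopontin, an RGD ligand of ITGAV receptors, averaged 13.33 in Hec-1A and 6.59 in RL95-2 under control IgG which makes it at least 103-fold higher (adjusted p = 2.26e-14). THBS1, thrombospondin, averaged 6.73 in Hec-1A and 8.65 in RL95-2 (log2 fold change -1.91, adjusted p = 8.55e-10), and TNC, tenascin C, averaged 8.32 in Hec-1A and 7.18 in RL95-2 (log2 fold change 1.13, adjusted p = 1.86e-08). Of 3 tested integrin chains outside the 30 genes, ITGAE, the alpha subunit that binds E-cadherin, averaged 9.33 in Hec-1A and 9.90 in RL95-2 under control IgG (log2 fold change -0.57, adjusted p = 0.00483). ITGAX and ITGAM, alpha subunits of leukocytes, were not called under any treatment. In the comparisons within a line, limma called no gene of these 5 lists at an adjusted p below 0.05, while 0 to 7 genes a list and comparison had an unadjusted p below 0.05. Over all 15364 tested genes that number was 545 to 4004 a comparison.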

How the data were processed

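Total RNA was labelled and hybridized to Illumina bead arrays, per the labels' protocols. The authors deposited a table of non-normalized probe intensity, 1 column per array, exported with BeadStudio (version not given in the sources used here), and processed log2 values per the labels. The design's planned use of detection p-values was not possible, so its fallback was used. Intensities (66.7 to 22228 over all arrays, floor 16) were taken as log2 and quantile-normalized, with no background subtracted, so folds of dim probes are understated. The authors' deposited log2 values differed from these by at most 0.0438. The upper quartile of intensity per array was 123 to 186. Probes that exceeded the array median on 3 or more arrays (32216 of 47231) were fitted with limma 3.58.1 in R 4.3.3 (6 group means, 12 residual and 3.29 prior degrees of freedom, 11 contrasts, two-sided, Benjamini-Hochberg adjusted over all tested probes). Called members were described with values, and otherwise the 3 smallest p values per contrast, and in each list of other genes the 3 smallest p values between the lines under control IgG. An "at least" fold raises the dim group's arrays to the array median. The code was tested on simulated data. Figures used matplotlib 3.10.9 in Python 3.11.15. Members and lists were chosen with earlier results of these data known.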

Additional observations from a re-analysis of the deposited data

How the results depend on the processing

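Another probe of ITGB4, near the array median in all groups, turned its control IgG difference between the lines to 0.0768 (adjusted p = 0.342). The array weights gave 14 members called between the lines under PDGF-AA, 6 for PDGF-AA against control IgG in Hec-1A, 5 for PDGF-AA + 3G3 against control IgG in Hec-1A and 2 for the interaction with PDGF-AA. The share of all genes called with array weights is not given here. A filter at the 75th percentile gave 2 (ITGA2 and ITGB8) for PDGF-AA + 3G3 against control IgG in Hec-1A, over fewer tested probes. For these the cause was not tested. Leaving out each array in turn gave 16 to 17, 9 to 13 and 10 to 13 members called between the lines under control IgG, PDGF-AA and PDGF-AA + 3G3, 0 to 6 for PDGF-AA and 0 to 6 for PDGF-AA + 3G3 against control IgG in Hec-1A, 0 to 2 for the interaction with PDGF-AA, and 0 in the other comparisons. The other settings gave 14 to 19, 8 to 14 and 9 to 13 between the lines. The shares of all tested genes called with an array left out or under these settings are not given here. Changes in these counts are therefore not read as results about the integrin and laminin genes. With no normalization the median of all tested probes moved to 0.11 between the lines under control IgG, to -0.12 for PDGF-AA in Hec-1A and to -0.14 for the interaction, and ITGB1, ITGB4 and ITGB5 lost their calls under control IgG (adjusted p = 0.0553, 0.1 and 0.136), ITGB6 under PDGF-AA (0.101), and ITGB5, ITGB6 and ITGB8 under PDGF-AA + 3G3 (0.101, 0.0526 and 0.401). LAMB3, ITGB3, ITGA3, ITGA5, LAMB1, LAMC3 and ITGB2 kept direction and call between the lines in every setting run with the reported probe. The replicate block left the counts at 17, 9 and 12 between the lines and 0 elsewhere. Same-numbered arrays deviated together (correlation above 0.1) in at most 2 of the 3 pairs of any comparison. With 3 pairs each, this cannot tell whether the numbers mark shared cultures or batches. Leaving out the 4 arrays that stand apart was chosen after seeing the data. It gave 18 and 13 under control IgG and PDGF-AA, again without the share of all tested genes. No count is given for PDGF-AA + 3G3, where a single RL95-2 array was left. Signal near the array median limits ITGA4, ITGA7, ITGA9, ITGA10, ITGA11 and ITGB7, where a difference may be hidden by the background.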
